A study of Zea mays with 9 samples.

Results

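In a table of chromatin accessibility for 38703 maize genes, 165 genes (0.426%) carried exactly the same values as another gene in all 9 libraries. They fell into 57 sets of 2 to 12 genes. The members were chosen by the deposited values themselves: all 9 had to equal those of at least 1 other gene. No gene was at 0 in every library. Equality is therefore given as a description, without a test. Accessibility was measured by ATAC-seq in root nuclei of B73 seedlings, a maize inbred line, with 3 libraries at each of 0 h, 6 h and 12 h. The seedlings had germinated for 2 days at 30 °C and grown for 7 days at 23 °C. Per the labels, all 9 libraries share the agent tunicamycin, given as 5 mg per ml in DMSO, so the 0 h libraries are the baseline here, and time and drug cannot be told apart. The labels name both root and protoplasts as the material. Nothing in them says that the libraries of a time came from separate plants beyond the series calling them biological replicates, so p-values measure the spread between these libraries.

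In ATAC-seq a transposase cuts into open DNA, and the number of sequenced fragments over a gene's start or promoter is read as its accessibility. In plant genomes 2 neighbouring genes can lie back to back, with a shared stretch of open DNA between their starts, or their gene models can overlap. A read in such a stretch can be counted for both genes when the counted windows overlap there. Tunicamycin blocks N-linked glycosylation in the endoplasmic reticulum, and IRE1, the subject of the series, is a sensor of the unfolded protein response that follows. The Zm00001d identifiers are numbered largely along the genome, so a small difference in number marks close neighbours in the gene catalogue. Of the 38703 identifiers, 0 could be matched to a name, a position or a protein in the gene table used here, so members are described by identifier only.

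The deposited values pile up on multiples of 73 and were taken, from the values alone, as coverage in read bases, since no source used here states their unit. The value 73 occurred 5648 times, against a mean of 48.5 times for the values just below and above it. A read below is 73 units of the deposited value, so every number of reads rests on that inference. Library totals ran from 28.9 to 39.1 megabases, and the median gene held 11.0 reads per library. Scaled coverage is the deposited value divided by a library factor. Correlations of log2 coverage over genes ran from 0.706 to 0.763 within a time and from 0.717 to 0.757 between times. Between 536 and 718 genes were at 0 in any 1 library.

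The 57 sets were of 2 kinds, separated by the distance between the lowest and the highest identifier of a set. Their levels overlapped at the low end. In 25 sets, all of them pairs, the identifiers were at most 3 numbers apart, and these held 50 genes. In the other 32 sets, with 115 genes, the lowest and highest identifiers lay between 1545 and 53846 numbers apart. No set thus spanned a distance between 3 and 1545. Members inside a distant set could be closer. The smallest distance between them was over 100 numbers in 30 of the 32 sets, and 1 and 3 in the sets where it was smallest. Over the 9 libraries the distant sets held between 0.0959 and 5 reads in total, with a median of 2. The near pairs held between 2 and 222 reads in total, with a median of 48.0. Every identical gene with more than 15 reads in total was in a near pair, 32 of 32 genes, while 37525 genes of the table had more than 15 reads. The limit of 3 identifier numbers was set after the distances had been seen.

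**Figure D1:**
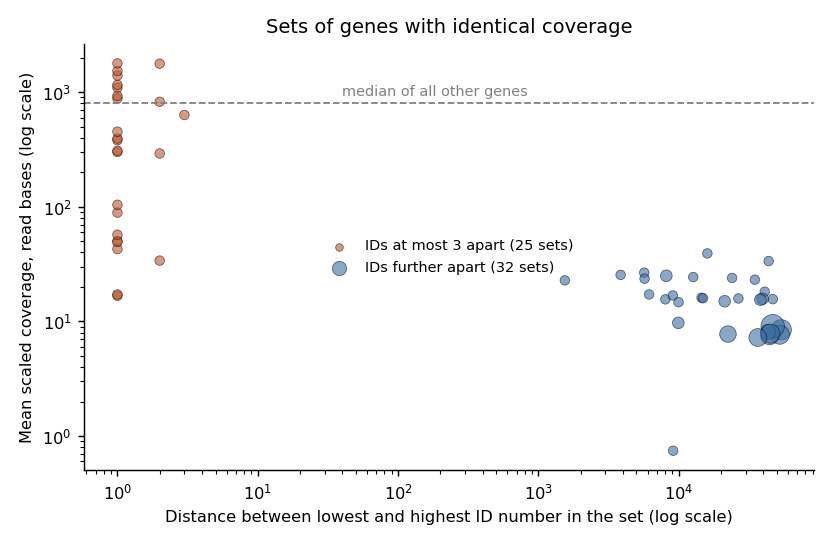
Each point is a set of genes with identical coverage, with the distance between its lowest and highest identifier number on the horizontal axis and its mean scaled coverage in read bases on the vertical axis, both on log scales. Point area grows with the number of genes. The 25 near pairs sit at distances of 1 to 3 and reach 1786, while the 32 distant sets start at a distance of 1545 and stay at or below 39.2.

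The distant sets were genes with almost no coverage. Their 115 genes had a median scaled coverage of 9.09 read bases, or 0.124 reads per library, against 802 read bases, or 11.0 reads, in the 38538 genes identical to no other. All 115 had a mean below 1 read per library, as did 685 genes of the table (1.77%), and 129 of these 685 genes (18.8%) were members. In 31 of the 32 distant sets every value was a whole number of reads. The exception was Zm00001d040815 and Zm00001d049944, both at 7 read bases in 12 h replicate 2 and at 0 elsewhere, the coverage of 0.0959 reads.

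Identity among low genes was rarer at 5 reads in total than at 1. Among genes made of whole reads, all 65 with 1 read in total were members. That read can lie in any of 9 libraries, and each of the 9 patterns occurred in at least 3 genes. With 2 reads in total 31 of 47 genes (66.0%) were members, and with 3 reads 17 of 52 (32.7%). With 4 reads the count was 4 of 36 (11.1%), and with 5 reads 4 of 49 (8.16%). From 6 to 15 reads the members were 10 genes, all in near pairs, and the share did not fall steadily. It was 4 of 32 genes (12.5%) at 6 reads, 2 of 42 (4.76%) at 7, 2 of 29 (6.9%) at 11 and 2 of 26 (7.69%) at 13, with no member at the other totals. Of the 41 genes with 1 read in each of 2 libraries, 29 shared their pattern with another gene. Those 41 genes used 25 of the 36 possible pairs of libraries, and 11 of them had both reads at the same time point.

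**Figure D2:**
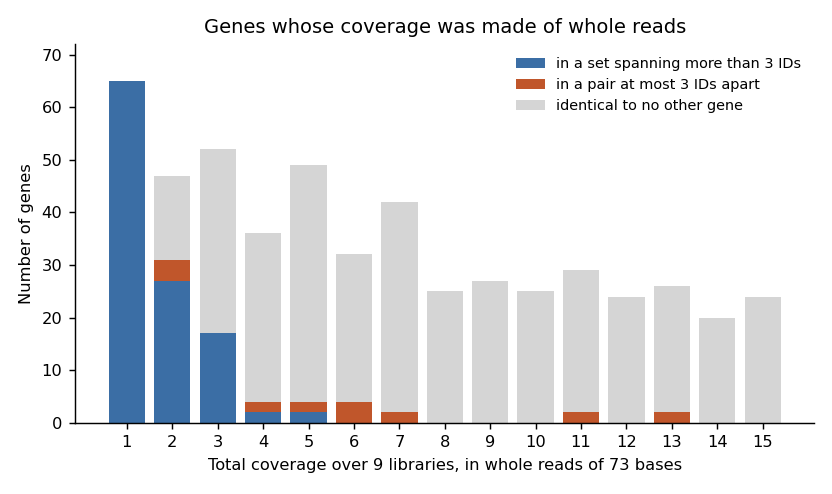
Bars show the number of genes whose 9 values were all whole reads, by total reads over the 9 libraries. All 65 genes with 1 read were in distant sets, 31 of 47 genes with 2 reads were members, and no member of a distant set had more than 5 reads.

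Every set of 5 or more genes had a single read in a single library. The largest set had 12 genes, with 73 read bases in 6 h replicate 1 and 0 in the other 8 libraries. It was made of Zm00001d004256, Zm00001d007289, Zm00001d008384, Zm00001d011316, Zm00001d017865, Zm00001d018315, Zm00001d020582, Zm00001d024591, Zm00001d041932, Zm00001d044884, Zm00001d046807 and Zm00001d051031. A set of 9 genes, from Zm00001d000255 to Zm00001d054101, had its read in 6 h replicate 2 and spanned 53846 numbers, the widest distance of any set. A set of 8 genes, from Zm00001d000383 to Zm00001d052975, had its read in 12 h replicate 1, and another of 8, from Zm00001d006403 to Zm00001d051485, in 12 h replicate 3. Sets of 7 genes had their read in 0 h replicate 1 and in 0 h replicate 3. The latter held Zm00001d047608 and Zm00001d047609, which are neighbours in number, beside 5 genes far from them. The set of 6 genes with its read in 12 h replicate 2 held Zm00001d025629 and Zm00001d025632, 3 numbers apart. It also held Zm00001d025503 and Zm00001d025601, near them in number.

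Counted over libraries, genes with exactly 1 read in that library and none elsewhere numbered 7, 5 and 7 at 0 h, 12, 9 and 3 at 6 h, and 8, 6 and 8 at 12 h. The spread within 6 h covered the whole range of the other times. All 3 libraries at 6 h had totals below every library of 0 h and 12 h. Totals were 31.06, 33.12 and 28.93 megabases at 6 h, against at least 35.0 at 0 h and 35.83 at 12 h. These counts are therefore compared across times at unlike depth. In all, 104 genes had coverage in only 1 library. Of these, 69 were members, and the other 35 had between 8 and 219 read bases, of which 6 values were multiples of 73.

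Time courses of the distant sets are those of single reads and are given without fold changes, since all groups lay at or under 3 reads per library. In 16 of the 32 sets, with 80 genes, coverage was seen at 1 time only. That was 0 h for 5 sets with 23 genes, 6 h for 4 sets with 26 genes, and 12 h for 7 sets with 31 genes. In 12 sets, with 26 genes, coverage was seen at 2 times, and in 4 sets, with 9 genes, at all 3. Zm00001d020575 and Zm00001d022120 had 73 read bases in each of the 3 libraries at 0 h and none at 6 h or 12 h, the lowest limma p among the sets with lower coverage at 6 h. Zm00001d000343 and Zm00001d047200, 46857 numbers apart, had 146 read bases in 12 h replicate 3 and nothing in any other library. Reads summed over the 115 genes were 16.0, 23.0 and 17.0 at 0 h, 21.0, 19.0 and 13.0 at 6 h, and 22.0, 25.2 and 32.0 at 12 h. The values at 12 h reached above those of the other times, but the lowest of them, 22.0, lay below the highest at 0 h. The sums were not scaled for library totals, which were lower in all 6 h libraries than at 0 h and 12 h.

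The near pairs were close neighbours in the catalogue. Over all 25 pairs the median scaled coverage was 381 read bases, against 802 in the genes identical to no other. The median pair lay at the 16.2 percentile of all genes by level. Of the 25 pairs, 20 were 1 number apart, 4 were 2 apart and 1 was 3 apart. In 23 of them the 2 genes stood in adjacent rows of the deposited table, and in the other 2 a single row lay between them. Mean coverage was above 3 reads per library in 16 pairs and at or below it in 9, while 36143 of the 38703 genes were above it. The 16 better-covered pairs had a median scaled coverage of 854 read bases (quartiles 391 and 1220.0), against 843 (556 and 1244) in the 36111 genes above 3 reads that matched no other gene. They lay between the 10.3 and the 92.6 percentile of all genes by level. Their values were not restricted to whole reads. Only 18.8% of them were multiples of 73, as were 18.8% of all values above 0 in the table, while in the distant sets 98.4% were.

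Genes numbered between the 2 members of a pair did not share their values. Zm00001d013434, between Zm00001d013433 and Zm00001d013435, had a mean of 1415 read bases where the pair had 289.7. Zm00001d050159 had 48.9 between Zm00001d050158 and Zm00001d050160, which had 822. Zm00001d008290 had 926 between Zm00001d008289 and Zm00001d008291, which had 1784, and Zm00001d027474 had 368 between Zm00001d027472 and Zm00001d027475, which had 642. None of these 4 genes equalled the pair around it in any library. The numbers of Zm00001d000278 and Zm00001d027473 have no row in the table.

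The order of rows in the table bears on 3 of the pairs. Of gene pairs 1 number apart, 99.7% stood in adjacent rows, but over longer stretches the rows were not in identifier order. Zm00001d002221 and Zm00001d010259, with 5809 identifiers of the table numbered between them, stood 24654 rows apart. At 25 of 38702 steps (0.0646%) a row is followed by the number just below it. Of those 25 places, 3 touched a near pair. Zm00001d003295 stood before Zm00001d003294, and in the other 2 cases the gene numbered between the members stood behind them, so that the identical genes were adjacent. Row order played no part in choosing the genes, and whether that order follows position on the chromosome was not tested.

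Per pair compared at a given distance, identity was most frequent in immediate neighbours. Of 30212 gene pairs 1 number apart, 21 (0.0695%) were identical, and of 29601 pairs 2 apart, 4 (0.0135%). Of 29505 pairs 3 apart, 2 (0.00678%) were identical, 1 of them in the 6-gene set above. Of longer distances only 4, 5, 10, 20 and 100 were examined this way. None of them held an identical pair, with between 28913 and 29439 pairs at each. Among pairs with both genes above 3 reads, 12 of 26848 at a distance of 1 were identical (0.0447%). In all, 284 pairs of genes were identical. Of these, 27 were at most 3 numbers apart, 3 were 4 to 100 apart and 254 were more than 100 apart. The 3 pairs that were 4 to 100 apart all lay in the 6-gene set above. No identical pair more than 3 apart had a mean above 40.6 read bases.

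Beside the identical pairs, a larger group of immediate neighbours deviated from the time means in nearly the same way, without equal values. For pairs with both genes above 3 reads and not identical, the deviations of log2 coverage from the time means were correlated over the 9 libraries. At a distance of 1, 159 of 26836 pairs (0.592%) had a correlation above 0.95. At the other distances examined, from 2 to 100, there were between 11 and 27 such pairs at each (0.0428% to 0.104%). The pooled correlation was 0.02 at a distance of 1 and between -0.00374 and 0.00233 at the other distances. These correlations run over libraries that share their depth, and genes are not independent replicates, so no p is given. Of the 159 pairs, 120 (75.5%) also had mean levels within 10% of each other, which held for 11.8% of all pairs 1 apart. Equal values were rarer, with 7 pairs above 3 reads at a distance of 1 that were equal in 4 to 8 libraries. Just outside the rule were 2 pairs above 3 reads that were equal in 8 of 9 libraries, both 1 number apart. Zm00001d038041 and Zm00001d038042 differed only in 0 h replicate 3, with 362 and 365 read bases. Zm00001d015323 and Zm00001d015324 differed only in 12 h replicate 2, with 479 and 506.

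**Figure D3:**
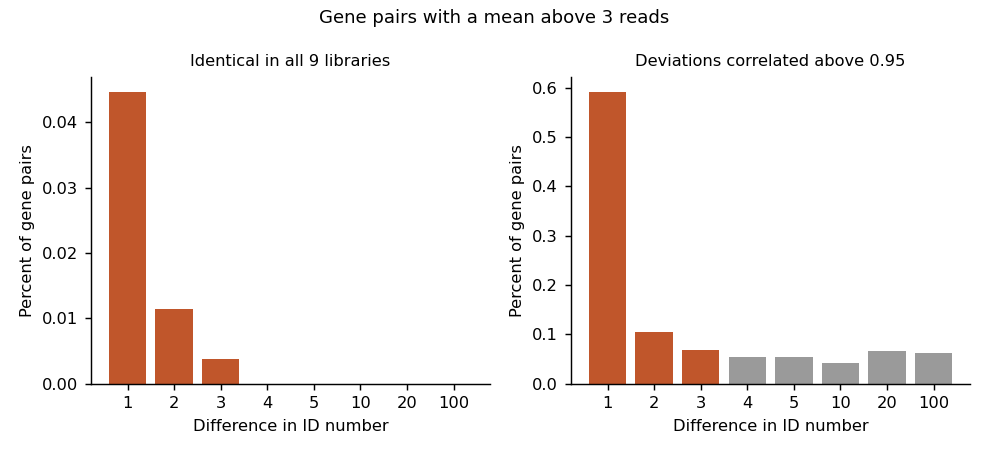
Bars show the percent of gene pairs with both means above 3 reads, by the difference in identifier number. On the left are pairs identical in all 9 libraries, 0.0447% at a distance of 1 and none from 4 up, and on the right pairs that were not identical but whose deviations from the time means correlated above 0.95, 0.592% at a distance of 1 against 0.0428% to 0.104% further apart.

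The 9 near pairs of low coverage held between 2 and 13 reads in total, all whole. Zm00001d002107 and Zm00001d002108 had the most, with 365, 146 and 0 at 0 h, 0, 146 and 146 at 6 h, and 73, 73 and 0 at 12 h in read bases. Zm00001d035996 and Zm00001d035997 had 146, 73 and 219 at 0 h, 146, 73 and 73 at 6 h, and 73, 0 and 0 at 12 h, so that the highest value at 12 h was no more than the lowest at 0 h and at 6 h. The highest of these values is that of 3 reads, so no fold is given for the pair. Zm00001d019350 and Zm00001d019351 had 0, 0 and 0 at 0 h, 73, 73 and 73 at 6 h, and 0, 146 and 0 at 12 h, with a read in each 6 h library and none at 0 h. It was the pair of lowest limma p among those higher at 6 h, at an adjusted p of 0.807. The smallest totals, 2 reads, belonged to Zm00001d000296 and Zm00001d000297, and to Zm00001d025495 and Zm00001d025496. The other 4 low pairs, Zm00001d000277 and Zm00001d000279, Zm00001d018456 and Zm00001d018457, Zm00001d021183 and Zm00001d021184 and Zm00001d005518 and Zm00001d005519, had between 4 and 7 reads, spread over 4 or 5 libraries each. At 2 to 5 reads in total near pairs and distant sets both occurred, and in that range the kinds cannot be told apart by level.

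The 5 pairs of highest coverage held between 1161 and 1786 scaled read bases on average. Zm00001d028041 and Zm00001d028042 had 1913, 1816 and 2377 at 0 h, 1797, 1401 and 1669.6 at 6 h, and 1739.5, 1349 and 2012 at 12 h. Every 6 h library lay below every 0 h library, by a narrow margin, and the 12 h libraries overlapped both. Zm00001d008289 and Zm00001d008291, which are 2 numbers apart, had 2179, 2091 and 1617 at 0 h, 2217, 1300.4 and 1595 at 6 h, and 1526, 1886 and 1564 at 12 h. Zm00001d032560 and Zm00001d032561 had 1173, 1562 and 1145 at 0 h, 1577, 1525 and 2056 at 6 h, and 1654, 1712 and 1381 at 12 h. In both pairs the 3 times overlapped, and the 6 h libraries had the widest spread, with an SD of 468 and 293 in that order. Zm00001d006923 and Zm00001d006924 had 1284, 1589.6 and 1613 at 0 h, 1434, 1292 and 1111 at 6 h, and 1809, 1466 and 992 at 12 h. Zm00001d049612 and Zm00001d049613 had 1314, 937 and 939.9 at 0 h, 905, 1565 and 1061 at 6 h, and 1113, 1528 and 1083 at 12 h. The times overlapped in these pairs too.

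The next 5 pairs had means from 633 to 1098. Zm00001d003294 and Zm00001d003295 had 893, 1096 and 851 at 0 h, 1407, 1072 and 1679 at 6 h, and 1054, 768 and 1058 at 12 h. All 3 libraries at 6 h were above all 3 at 12 h, while the lowest of them lay just under the highest at 0 h. Zm00001d034675 and Zm00001d034676 had 1050.4, 751 and 981 at 0 h, 621, 1216 and 675 at 6 h, and 1022, 929.5 and 1125 at 12 h. Zm00001d008662 and Zm00001d008663 had 882, 1012 and 1087 at 0 h, 779, 951 and 1116 at 6 h, and 306, 986 and 822 at 12 h, where 12 h replicate 1 stood far below the other 8 libraries. Zm00001d050158 and Zm00001d050160 had 973, 434 and 963 at 0 h, 649.7, 937 and 1340.2 at 6 h, and 679, 684 and 768 at 12 h. Zm00001d027472 and Zm00001d027475, 3 numbers apart, had 581, 896 and 672 at 0 h, 553, 452 and 439.6 at 6 h, and 875, 480.1 and 746 at 12 h. All 6 h libraries of that last pair were below all 0 h libraries, and the 12 h libraries overlapped both.

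The 6 pairs of lower coverage, with means from 292 to 453, had coefficients of variation within a time from 31.0% to 44.9%, against 15.6% to 32.6% in the 10 pairs above. Zm00001d036594 and Zm00001d036595 had 362, 238 and 569 at 0 h, 361, 218 and 618 at 6 h, and 414, 552 and 746 at 12 h. Zm00001d046053 and Zm00001d046054 had 261, 593 and 547 at 0 h, 590.4, 380.0 and 262 at 6 h, and 266, 199.9 and 447 at 12 h. Neither separated the times. Zm00001d052202 and Zm00001d052203 had 610.4, 292 and 135 at 0 h, 153, 304 and 349.7 at 6 h, and 533, 558 and 493 at 12 h. Its 12 h libraries all exceeded its 6 h libraries, while the 0 h libraries ranged from below the 6 h values to above the 12 h values. Zm00001d037195 and Zm00001d037196 had 119.6, 299 and 269 at 0 h, 446, 113 and 304 at 6 h, and 339, 489 and 398 at 12 h, and here the 12 h libraries were all above the 0 h libraries. Zm00001d040358 and Zm00001d040359 had 385, 228 and 337 at 0 h, 327, 467 and 262 at 6 h, and 241, 139.6 and 325 at 12 h. Zm00001d013433 and Zm00001d013435 had 326, 364 and 135 at 0 h, 458, 349.8 and 262 at 6 h, and 159, 433 and 141 at 12 h. In these last pairs the times overlapped. Over all 16 pairs the coefficient of variation within a time ran from 15.6% to 44.9%, with a median of 25.4%, against 27.2% in the 31817 other genes in the same range of level.

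**Figure D4:**
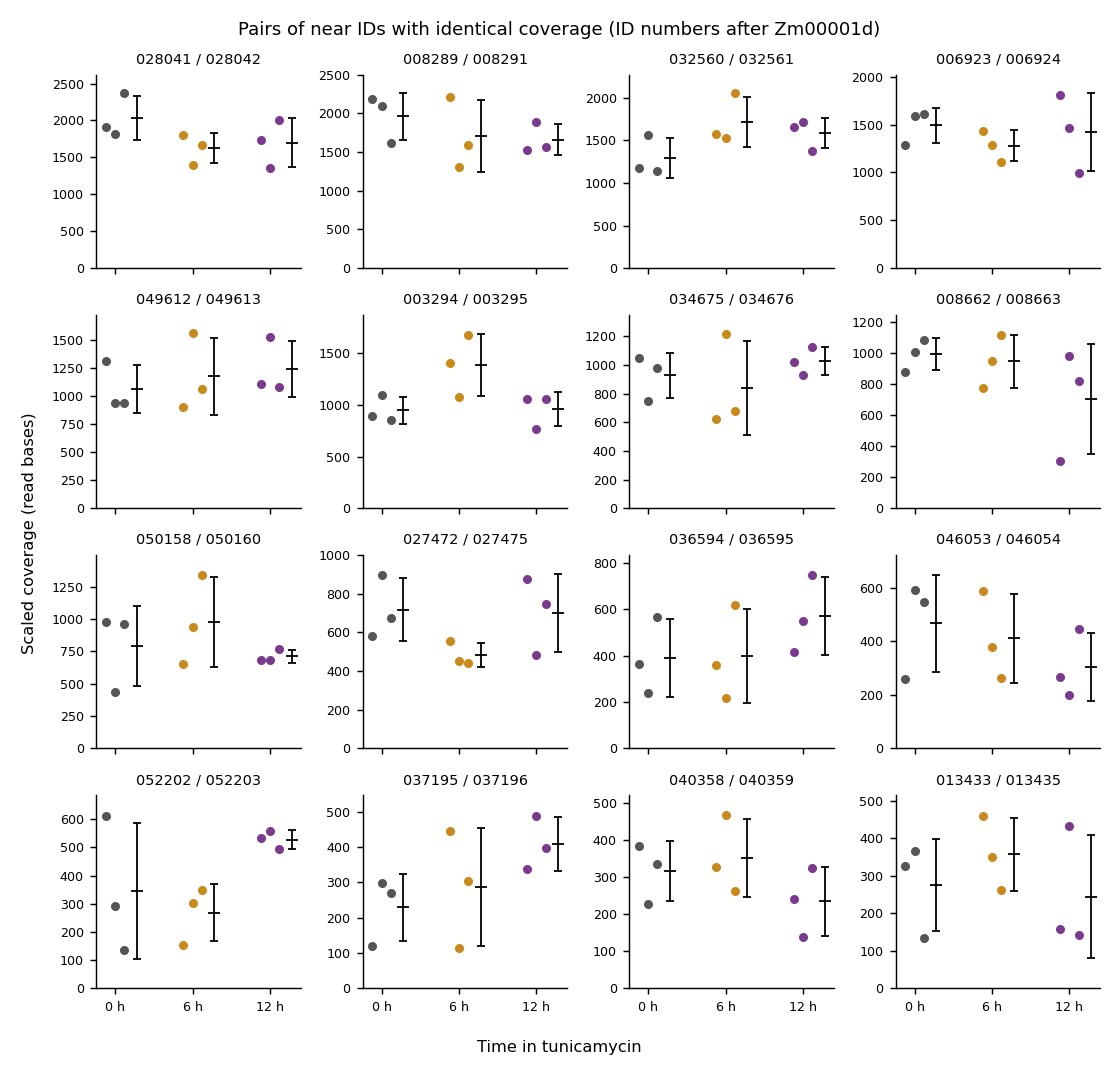
Each panel shows a near pair with a mean above 3 reads, named by the numbers after Zm00001d, with scaled coverage in read bases on an axis from 0. Points are the 3 libraries of each time, and the bar beside them is their mean ± SD (n = 3). The pair Zm00001d028041 and Zm00001d028042 reaches 2377 at 0 h, and in most panels the points of the 3 times overlap.

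The time course of the near pairs was compared with that of the whole table to see whether genes sharing their values changed over time. Both genes of a pair have the same test, so each pair is counted once. At 6 h relative to 0 h, 0 of the 16 better-covered pairs passed an adjusted p of 0.05 in limma, where it called 0 of 38703 genes (0.0%). At an unadjusted p under 0.05 there were 0 of the 16, against 2365 genes (6.11%). In 0 pairs every 6 h library lay above every 0 h library, against 5.35% of all genes, and in 2 pairs every one lay below, against 5.66%. The median log2 change over the 16 pairs was -0.04, with a range from -0.56 to 0.53, and over all genes it was -0.01. The median standard error of a pair was 0.36. The background share of 5.66% corresponds to about 1 pair in 16.

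At 12 h relative to 0 h, limma again called 0 of the 16 pairs and 0 of all genes (0.0%), with 0 pairs at an unadjusted p under 0.05 against 2003 genes (5.18%). The 12 h libraries were all higher than the 0 h libraries in 1 pair (5.59% of all genes) and all lower in 0 (5.69%). The median log2 change was -0.06 over the pairs and -0.00157 over all genes. For 12 h against 6 h the limma calls were 0 of the 16 pairs and 0 of all genes (0.0%), with 0 pairs at the unadjusted level against 2451 genes (6.33%). In 1 pair all 12 h libraries were higher (5.63% of all genes) and in 1 all were lower (5.6%). The median log2 change was 0.02 over the pairs and 0.01 over all genes. The comparisons share libraries, so they are not independent of each other. Leaving out a library turned the sign of these medians in each comparison, with 0.03 for 6 h against 0 h without 6 h replicate 1. For 12 h against 0 h the median was 0.02 without 0 h replicate 2 and 0.01 without 12 h replicate 2. For 12 h against 6 h it was -0.12 without 6 h replicate 2 and -0.08 without 12 h replicate 2.

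Of the sets taken for a low p in a comparison, 5 were pairs above 3 reads. Their changes were between 0.32 and 1.05 in size on the log2(value + 1) scale, in either direction, and none passed the threshold. Means here are over n = 3 libraries, with the SD in parentheses. Zm00001d003294 and Zm00001d003295 averaged 947 (SD 131) at 0 h, 1386 (SD 304) at 6 h and 959.9 (SD 166) at 12 h. The fitted log2 change between 0 h and 6 h was 0.53 ± 0.28 (SE) at limma adjusted p = 0.839, and between 6 h and 12 h it was -0.52 ± 0.28 (SE) at limma adjusted p = 0.801. Zm00001d028041 and Zm00001d028042 averaged 2036 (SD 299.7) at 0 h and 1623 (SD 202) at 6 h, a log2 change of -0.32 ± 0.22 (SE) at limma adjusted p = 0.882, and -0.21 without 0 h replicate 3. Zm00001d052202 and Zm00001d052203 averaged 346 (SD 242) at 0 h, 269 (SD 103) at 6 h and 528 (SD 33.1) at 12 h. Between 6 h and 12 h the pair differed by a log2 change of 1.05 ± 0.56 (SE) at limma adjusted p = 0.798, and between 0 h and 12 h by 0.87 ± 0.56 (SE) at limma adjusted p = 0.949. The latter change was 0.32 without 0 h replicate 3 and 1.41 without 0 h replicate 1, and the former was 0.69 without 6 h replicate 1. The 12 h libraries of this pair spread far less than the 0 h libraries, whose SD was 242. Zm00001d037195 and Zm00001d037196 averaged 229 (SD 96) at 0 h against 409 (SD 75.4) at 12 h, a log2 change of 0.92 ± 0.62 (SE) at limma adjusted p = 0.949. Without 0 h replicate 1 it was 0.51. Zm00001d027472 and Zm00001d027475 averaged 482 (SD 62.5) at 6 h against 701 (SD 202) at 12 h, with a log2 change of 0.50 ± 0.38 (SE) at limma adjusted p = 0.861, and 0.33 without 12 h replicate 1. Its mean was highest at 0 h. Zm00001d008662 and Zm00001d008663, named after the values had been seen, had the lowest p of the 16 pairs for 12 h against 0 h. Their log2 change was -0.65 ± 0.36 (SE) at limma adjusted p = 0.944, and without 12 h replicate 1, the low library, it was -0.13 (limma adjusted p = 0.995).

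Across the 16 pairs the time of the highest mean was spread evenly. It was 0 h in 6 pairs, 6 h in 5 and 12 h in 5, and the lowest mean fell at 0 h in 5, at 6 h in 5 and at 12 h in 6. Among the other genes above 3 reads the highest mean was at 0 h in 33.1%, at 6 h in 33.6% and at 12 h in 33.2%. Including the sets of low coverage, 1 of 57 sets in each comparison had an unadjusted limma p under 0.05, and 0 passed the adjusted threshold, at adjusted p of 0.77 or more. The single set was Zm00001d019350 and Zm00001d019351 for 6 h against 0 h, and Zm00001d035996 and Zm00001d035997 for both comparisons of 12 h, pairs of 5 and 11 reads in total.

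Members held a small and steady share of each library. Counting each set once, the near pairs held 0.0425%, 0.0419% and 0.0423% of coverage at 0 h, 0.0424%, 0.0410% and 0.0450% at 6 h, and 0.0405%, 0.0418% and 0.0408% at 12 h. The means were 0.0422% ± 0.000295 (SD, n = 3), 0.0428% ± 0.002 (SD, n = 3) and 0.0411% ± 0.000673 (SD, n = 3). All 12 h values lay below all 0 h values by a margin smaller than the spread at 6 h, and the 6 h values overlapped both. With the distant sets added the share was 0.0435% at 0 h, 0.0442% at 6 h and 0.0430% at 12 h. Counting every gene, as the table does, doubled the near pairs and gave 0.0881%, 0.0898% and 0.0874%.

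**Figure D5:**
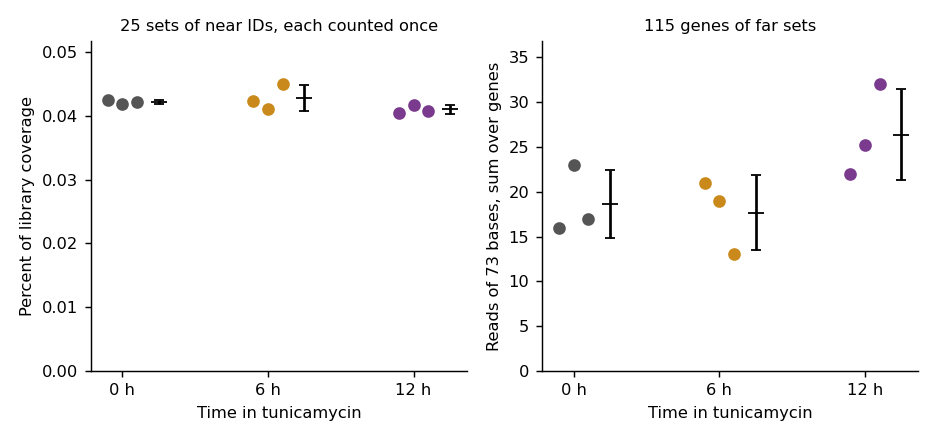
On the left is the percent of each library's coverage held by the 25 near pairs, each counted once, and on the right the reads summed over the 115 genes of distant sets, both on axes from 0. Points are libraries and bars are means ± SD (n = 3). The near pairs stay between 0.0405% and 0.0450%, and the distant genes between 13.0 and 32.0 reads per library.

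Identical rows enter a test across the table as separate genes with equal values. Whether they hold the same reads was not tested. The 165 members correspond to 57 profiles, so 108 rows repeat another and the 38703 rows hold 38595 distinct profiles. Fitted with 1 row for each set, limma called 0 genes in each comparison, and at an unadjusted p under 0.05 the counts were 2354, 1999 and 2443 genes for 6 h against 0 h, 12 h against 0 h and 12 h against 6 h. With every row kept they were 2365, 2003 and 2451.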

How the data were processed

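The authors deposited 1 table of whole numbers, taken here as coverage (signal), for 38703 genes in 9 libraries, with 0 columns of no sample. Per the submitters' processing notes the tools were DESeq2, MACS2, Bowtie2 2.2.6 and cutadapt 1.11, with roles not stated. The sources used here name neither the genome build nor the counted window nor a duplicate filter. Rows with equal values were grouped in Python 3.11.15 with pandas 2.3.3. Coverage was divided by trimmed mean of M values (TMM) factors (30% of ratios and 5% of levels trimmed), a pseudocount of 1 was added, and log2 values of all libraries and genes were fitted in limma 3.58.1 (R 4.3.3) with trended, robust moderation. Two-sided p-values were Benjamini-Hochberg adjusted, with a threshold of 0.05. The unit is stated in no source used here and was inferred from the steps of 73. The test planned for counts was set aside on that inference.

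The fit and the search for equal rows were tested on simulated data. Sets were named as the 5 largest, the 5 highest and 3 lowest in level, the 2 of lowest p in each direction and comparison, and the 3 widest, and the other near pairs were added. The members and rules were chosen with earlier results of these data known. Position and protein comparisons were not run, since no identifier could be matched. Totals limit precision, and SDs, SEs and p-values measure the spread between libraries.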

Additional observations from a re-analysis of the deposited data

How the results depend on the processing

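Scaling by median ratios or totals, pseudocounts of 10 and 73, a minimum mean of 10 reads, 1 row for each set and the replicate block left the limma count at 0 in each comparison. With the replicate block, unadjusted counts were 2375, 2006 and 2495 genes for 6 h against 0 h, 12 h against 0 h and 12 h against 6 h. Deviations of same-numbered libraries had correlations over genes from -0.014 to 0.013. At about 11.0 reads per gene these values cannot settle whether the numbers pair the libraries. Leaving out each library, the count ran from 0 to 1 for 6 h against 0 h, the 1 being Zm00001d042506, no member, without 6 h replicate 1 (limma adjusted p 0.00175), and was 0 to 0 in the other comparisons. With a mean of 10 reads or more, 18 genes in 9 sets were identical, and with members 1 number apart 40 genes in 20 sets. Equality in 8 libraries, leaving out each in turn, gave 183 to 206 genes and 60 to 71 sets. Above 3 reads it gave 32 to 34 genes, an alternative chosen after seeing the data. The share of coverage was 0.0881%, 0.0898% and 0.0874% at 0 h, 6 h and 12 h counting each gene, and 0.0314%, 0.0325% and 0.0314% in pairs 1 number apart. Without single libraries the share was 0.0434% to 0.0436%, 0.0430% to 0.0451% and 0.0426% to 0.0436%. The median log2 change of the 16 pairs ran from -0.0813 to 0.0306 for 6 h against 0 h, from -0.0581 to 0.0210 for 12 h against 0 h, and from -0.117 to 0.0327 for 12 h against 6 h. The 124 log2 changes of named pairs under these alternatives kept their direction and stayed short of the threshold. The widest ranges were 0.322 to 1.41 for Zm00001d052202 and Zm00001d052203 (limma adjusted p 0.905 to 1.0) and -0.979 to -0.132 for Zm00001d008662 and Zm00001d008663 (0.846 to 1.0), both for 12 h against 0 h. The depth of about 11.0 reads per gene limits what single pairs can show.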

Other observations

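Members were found over most of the identifier range. Divided into 55 blocks of 1000 numbers, 48 held at least 1 member, with a median of 3. The block from 25000 to 25999 held the most, 8 of its 777 genes, of which 6 were in distant sets. In the block from 0 to 999, 7 of 298 genes were members, 4 of them in near pairs. In these blocks 3.47% and 5.03% of genes had a mean below 1 read, against 1.77% of all genes. The blocks were picked after their counts had been seen.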
